A study of Mus musculus with 21 samples.

Results

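The results below concern the 8 dorsal root ganglion libraries labelled CFA, out of 21 libraries in the series, regrouped by their level of Tmem45b and not by their genotype label. Tmem45b was expressed as counts per 1000000 counts of the library total, and libraries under 90 were called Tmem45b-low and the others Tmem45b-high, which gave 4 low and 4 high libraries. Every mouse of the series carried the floxed Tmem45b allele (Tmem45b-flox), and the libraries labelled cKO came from mice that also carried Mrgprd-cre. The CFA libraries comprised 4 labelled cKO and 4 labelled flox, and 13 libraries for which the labels name no treatment comprised 7 cKO and 6 flox; both kinds were bulk RNA sequencing of whole ganglia. Genotypes were taken from the sample titles, because the genotype field names the Cre line for every sample. CFA usually stands for complete Freund's adjuvant, an inflammatory agent, but the labels do not spell it out, nor do they state age, sex or the part of Tmem45b that is floxed. The names of 7 untreated libraries, the con/ko set, also hold a letter F or M and a letter C or L, which the labels do not explain, and the other 6 untreated libraries form the LDRG set.

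Mrgprd marks nonpeptidergic nociceptors, sensory neurons that send fine fibres to the skin and take part in mechanical pain and itch. Tmem45b encodes a multi-pass membrane protein, and the title of the series places it in itch and in the calcium store of the endoplasmic reticulum. The ganglion also holds peptidergic nociceptors, touch and muscle afferents, satellite glia, Schwann cells, vessels and immune cells, so a bulk level mixes all of them, and fewer cells of a type cannot be told apart from less RNA per cell.

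In Tmem45b-low libraries the gene had 57.8 counts per 1000000 in cKO 4, 64.9 in flox 1, 66.0 in cKO 3 and 77.4 in flox 4. In Tmem45b-high libraries it had 101.9 in cKO 2, 106.9 in cKO 1, 112.1 in flox 2 and 134.0 in flox 3. Each level therefore held 2 libraries labelled cKO and 2 labelled flox, so the grouping did not follow the genotype label. These values chose the groups, and the members nearest the threshold were flox 4 below it at 77.4 and cKO 2 above it at 101.9. In untreated ganglia, by contrast, Tmem45b spanned 58.4 to 94.1 in the 7 cKO libraries and 120.4 to 187.1 in the 6 flox libraries, with no overlap. The high CFA libraries cKO 2, cKO 1 and flox 2 lay between these untreated ranges, and only flox 3 lay within the untreated flox range. A level above or below the threshold therefore does not stand for a genotype. The gene lies at chr9:31426196-31464462 on the minus strand (mm10, GENCODE vM21).

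**Figure D1:**
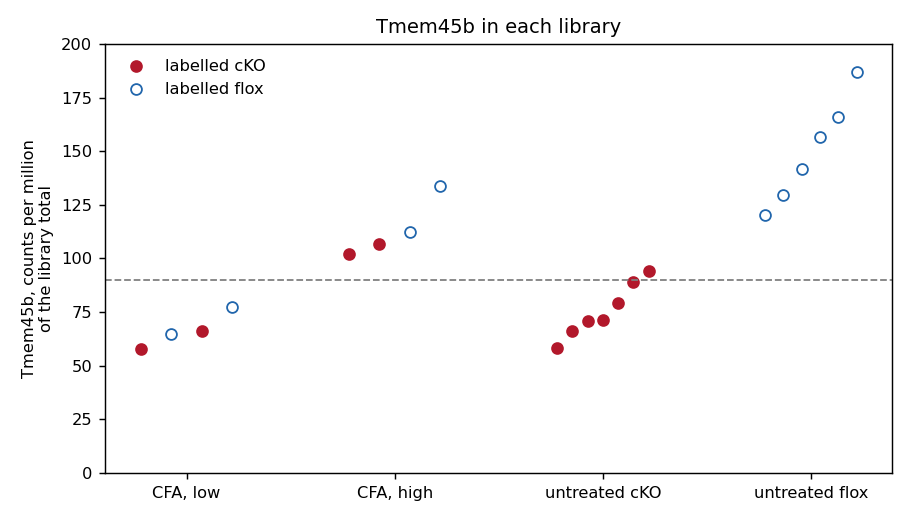
Tmem45b in each of the 21 libraries as counts per 1000000 counts of the library total (linear axis from 0), with filled points for libraries labelled cKO, open points for libraries labelled flox and a dashed line at 90. The CFA libraries of both labels lie on both sides of the line, whereas the untreated cKO libraries lie at 58.4 to 94.1 and the untreated flox libraries at 120.4 to 187.1.

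The 8 CFA libraries held 68922332 to 71790252 counts each, so depth was nearly equal. No pair of CFA libraries agreed within sampling noise, since the chi-square of counts divided by its degrees of freedom was 31.2 to 98.9 over all 28 pairs. Separate animals per library are not stated, so every p-value below measures the spread between these samples, which may be technical. Kcnb2, a voltage-gated potassium channel subunit, stood apart in 2 of the low libraries, cKO 4 and flox 1. It had 299 and 245 CPM there (counts per 1000000 after TMM scaling), against 9.30 to 10.4 CPM in the high libraries. It also stood apart, at a lower level, in the 4 untreated cKO libraries of the con/ko set. These had 149.9 to 178.2 CPM, against 7.17 to 10.9 CPM in the other untreated libraries. Its part in the values below was not tested, and counts without both libraries are given with the other alternatives.

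Because the libraries were grouped by a measured level, the low and high libraries were compared as a description without a test. A gene was counted as separated when all 4 low libraries lay below, or all 4 above, the 4 high libraries in CPM. Differences are the mean log2 CPM of the low libraries minus that of the high libraries, and a gap is the log2 distance between the nearest low and high library.

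Few genes divided the libraries as Tmem45b did, and their differences were small. Of 15184 genes other than Tmem45b, 421 were separated (2.77%), with 199 lower in the low libraries (1.31%) and 222 higher (1.46%). Any arbitrary split of 8 libraries into 4 and 4 also separates some genes. Whether 421 is more than such a split gives was not tested, so a separated gene is not thereby shown to follow Tmem45b. With scaling by column totals alone the split was 254 lower and 184 higher, so the share of separated genes that were higher was 42.0% in place of 52.7%. The median difference over all genes was -0.00, and the median absolute difference was 0.09. A difference of at least 1.5-fold was seen for 16 of the lower and 26 of the higher separated genes. The first 4 principal components of the 8 libraries held 19.4%, 17.8%, 15.2% and 14.8% of the variance, and none of them set the low libraries apart from the high ones.

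Mrgprd itself, the receptor gene after which the Cre line is named, was not low where Tmem45b was low. It had 164, 203, 150 and 173 CPM in the low libraries (cKO 4, flox 1, cKO 3 and flox 4, the order kept below) and 145, 110, 157 and 148 CPM in the high libraries (cKO 2, cKO 1, flox 2 and flox 3). The levels overlapped, with a difference of 0.31 on the log2 scale, which was 0.19 without cKO 1. Mrgprd lies at chr7:145314835-145324086 on the plus strand. Cd55, a complement regulator found on nonpeptidergic neurons, had 840, 685, 605 and 665 CPM in the low libraries and 601, 519, 556 and 586 CPM in the high libraries. Cd55 was separated and higher by 0.30, although the nearest libraries, cKO 3 among the low and cKO 2 among the high, were only a few CPM apart.

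Among the separated genes, Rnf214 had the largest gap of those lower in the low libraries. Rnf214, a RING finger protein gene, had 68.4, 65.4, 61.2 and 67.5 CPM in the low libraries and 102, 100, 90.6 and 91.2 CPM in the high libraries. The difference was -0.55 and the gap -0.41, as large as the gap of -0.40 for Tmem45b. Rnf214 lies on the same chromosome at chr9:45863425-45906911, minus strand. Its annotated span shares 975 bases with that of Bace1, the beta-secretase gene, and 415 bases with that of Pcsk7, a proprotein convertase gene, both on the opposite strand. Whether reads were counted by strand is unknown here, so reads in these bases cannot be assigned with certainty.

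Bace1 had 256, 248, 228 and 245 CPM in the low libraries and 207, 186, 229 and 199 CPM in the high libraries, in the other direction from Rnf214. The levels of Bace1 overlapped by the single library flox 2. The sum of Rnf214 and Bace1 was 324, 313, 289 and 313 CPM in the low libraries and 309, 287, 319 and 290 CPM in the high libraries, which overlapped. Pcsk7 had 25.7 to 31.4 CPM in the low libraries and 27.0 to 30.1 CPM in the high libraries. The sum of Rnf214 and Pcsk7 stayed separated, at 88.8 to 96.8 CPM in the low libraries and 119.9 to 128.6 CPM in the high libraries. Bace1 lay well above Rnf214 in every library, so its own spread weighs heavily in the sum with Bace1. Whether reads of these genes were misassigned was not tested.

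Nr2c2ap had the largest gap of the genes that were higher in the low libraries and the largest of all separated genes. Nr2c2ap encodes a protein that binds the nuclear receptor NR2C2, and it had 8.998, 6.74, 14.1 and 13.5 CPM in the low libraries and 3.40, 2.68, 3.01 and 2.90 CPM in the high libraries. The difference of 1.79 corresponds to 3.45-fold, with a gap of 0.98. Nr2c2ap (chr8:70131333-70133749, plus strand) shares 2417 bases with Rfxank on the opposite strand, so its counts carry the same uncertainty. Rfxank, a subunit of the RFX complex that controls MHC class II genes, had 32.3, 34.0, 31.0 and 33.8 CPM in the low libraries and 37.0, 39.0, 40.2 and 40.3 CPM in the high libraries. Both genes were separated, in opposite directions, but their sum of 40.7 to 47.2 CPM in the low libraries overlapped that of 40.4 to 43.2 CPM in the high libraries.

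**Figure D2:**
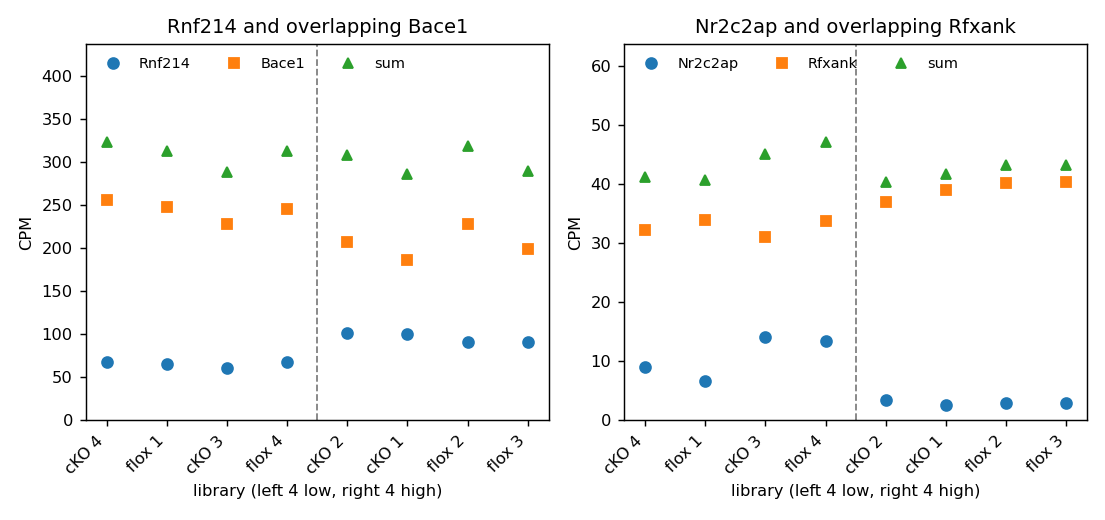
CPM (linear axes from 0) of Rnf214 with Bace1 and of Nr2c2ap with Rfxank, and of each pair's sum, in the 8 CFA libraries, with the 4 Tmem45b-low libraries left of the dashed line. Rnf214, Nr2c2ap and Rfxank do not overlap between the levels, whereas the sums of both pairs do.

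The untreated libraries, which did not enter the grouping, showed how widely these genes vary. On one TMM scale over the 21 libraries, Rnf214 spanned 60.6 to 93.9 CPM in untreated cKO and 58.6 to 115 CPM in untreated flox ganglia. Nr2c2ap spanned 2.42 to 19.3 CPM in untreated cKO and 3.79 to 16.8 CPM in untreated flox ganglia. For both genes the untreated libraries together covered the whole span of the low and high CFA libraries, although untreated Tmem45b did not overlap between the genotypes.

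The other lower genes named by the size of their gap were mostly at low levels. Gfra3, the receptor for artemin on peptidergic nociceptors, had 32.8, 32.9, 30.9 and 32.6 CPM in the low libraries and 40.8, 39.0, 36.4 and 36.4 CPM in the high libraries, a difference of -0.24. Egflam, an extracellular matrix protein gene, had 11.2 to 11.8 CPM in the low libraries and 13.5 to 14.3 CPM in the high libraries. Both sets of levels were narrow within each group, which a choice by gap favours. For Egflam the SD of log2 CPM was 0.033 in the low and 0.037 in the high libraries. Counting alone gives an SD of 0.051 and 0.046 there. Phpt1, a protein histidine phosphatase gene, had 8.95 to 12.3 CPM in the low libraries and 13.7 to 14.4 CPM in the high libraries, and shares 1416 bases with Mamdc4 on the same strand. Mamdc4 had 0.70 to 4.84 CPM in the low libraries and 0.66 to 1.23 CPM in the high libraries, so the assignment of Phpt1 reads is uncertain too. The difference was -1.05 for Tmem88, a Wnt signalling inhibitor gene, whose level in the high library cKO 2 was 5.33 CPM against 2.19 to 2.41 in the other high libraries. Tmem88 had 1.02 to 1.70 CPM in the low libraries and shares 162 bases with Naa38.

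Klk5 and Serpina11 belong to the protease and serpin families. Klk5 had 1.02 to 1.398 CPM in the low libraries and 1.67 to 1.98 CPM in the high libraries, a difference of -0.53. Serpina11 differed by -0.52, Steap1, a membrane protein of the STEAP family, by -0.52, and Fbll1, a fibrillarin-like gene, by -0.62. Cenpf, a kinetochore protein gene of dividing cells, differed by -0.62 and Kif17, a kinesin motor gene, by -0.50. Kif17 shares 10898 bases with Sh2d5 on the same strand. The last of the 12, AA387883, carries no annotation here and had 0.60 to 0.86 CPM in the low libraries and 1.01 to 1.64 CPM in the high libraries.

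Of the genes that were higher in the low libraries, Ifih1 encodes MDA5, a sensor of double-stranded RNA. Ifih1 had 29.3, 16.8, 17.2 and 17.4 CPM in the low libraries and 15.2, 15.4, 13.7 and 13.5 CPM in the high libraries, a difference of 0.44. The low library cKO 4 stood well above the rest, and the other low libraries lay just above the high ones, so that the difference was 0.25 without cKO 4. Tnfaip8, a TNF-induced gene, had 6.61 to 10.3 CPM in the low libraries and 3.62 to 5.92 CPM in the high libraries, a difference of 0.67. Rbbp8, whose product trims DNA ends for repair, had 12.1 to 14.8 CPM in the low libraries and 9.88 to 10.8 CPM in the high libraries, a difference of 0.32.

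The remaining higher genes had at most 6.35 CPM, and for 11 of the 24 named genes, Klk5 and Trim12a among them, the SD that counting alone gives was at least the SD between libraries in 1 group or both. Trim12a, a TRIM family gene, had 5.90 to 6.35 CPM in the low libraries and 4.47 to 4.90 CPM in the high libraries. Pemt, which methylates phosphatidylethanolamine, differed by 0.47, Nr4a3, an orphan nuclear receptor, by 0.55 and Bnc1, a zinc finger gene, by 0.52. Slc24a4, a sodium, calcium and potassium exchanger gene, differed by 0.88 and Gng5, a G protein gamma subunit gene, by 0.55, or 0.36 without cKO 3. Xlr3a, an X-linked gene, differed by 1.02, with 4.64 CPM in the low library flox 4 and 0.56 CPM in the high library cKO 2 far from the rest of their groups. Bbs12, a Bardet-Biedl syndrome gene, differed by 0.29 and shares 155 bases with Cetn4.

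**Figure D3:**
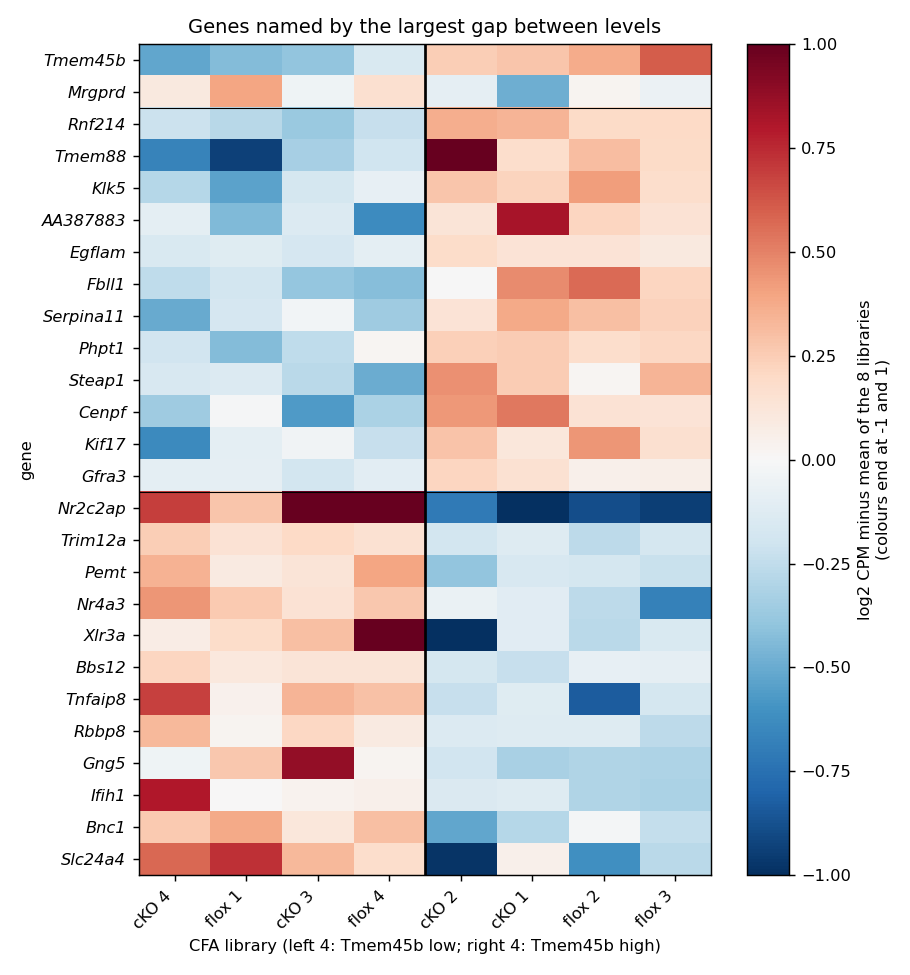
Log2 CPM minus the mean of the 8 CFA libraries (colour scale ending at -1 and 1) for Tmem45b, Mrgprd, the 12 lower and the 12 higher genes with the largest gap, with the 4 Tmem45b-low libraries left of the line. Each lower gene is below and each higher gene above in all 4 low libraries relative to the 4 high ones, as their choice requires, whereas the levels of Mrgprd overlap.

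Genes near Tmem45b on chromosome 9 did not follow it. All 10 measured genes within 1 Mb overlapped between the levels, from Snx19 to Fli1. Nfrkb, the nearest on one side, had 26.6 to 31.7 CPM in the low libraries and 26.3 to 29.7 CPM in the high libraries. Within 5 Mb, 1 of 35 genes was separated and lower, and within 20 Mb, 5 of 254 were lower and 2 higher, near the shares over all genes.

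**Figure D4:**
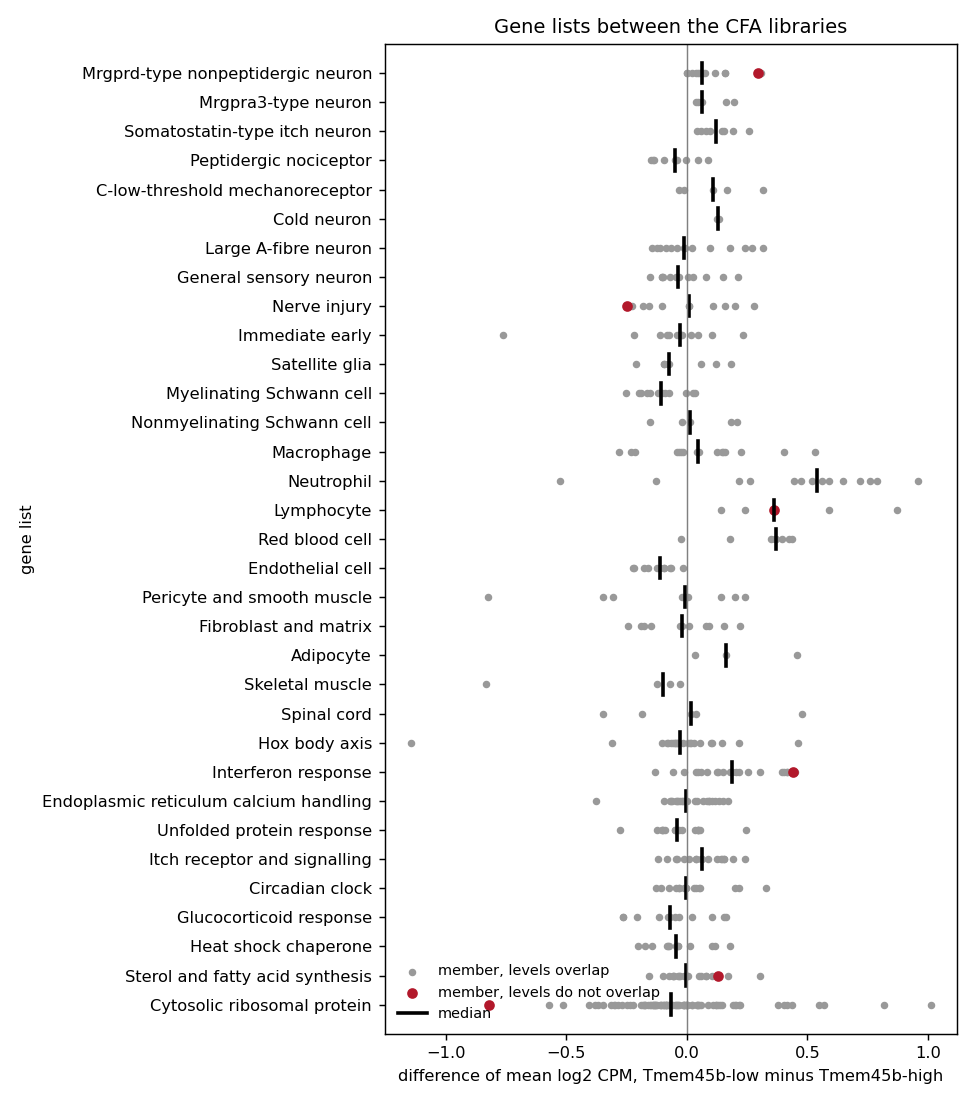
Difference of mean log2 CPM, Tmem45b-low minus Tmem45b-high, for each measured member of the gene lists (points), with list medians as black bars and members whose levels do not overlap in red. Most points lie near 0, and 6 members in all are red.

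Over 33 gene lists of cell types and pathways, 6 of 453 members were separated (1.32%), beside 2.77% of all genes. The 6 were Cd55, Cd3e, Ifih1 and Insig1, which were higher in the low libraries, and Gal and Rpl9, which were lower, and 27 lists had none. Cd3e, of the lymphocyte list, had only 0.47 to 0.57 CPM in the low libraries and 0.28 to 0.46 CPM in the high libraries. At that level counting error is large, so its separation is uncertain. Gal, a neuropeptide gene induced by nerve injury, had 5.21 to 5.95 CPM in the low libraries and 6.39 to 7.02 CPM in the high libraries. Insig1, which restrains sterol synthesis, had 129 to 150 CPM in the low libraries and 115 to 129 CPM in the high libraries. Rpl9, a ribosomal protein gene with near-identical copies elsewhere, differed by -0.82, with 0.67 CPM in the low library flox 4, and is uncertain for that reason.

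List medians of sensory neuron types ran from -0.05 for peptidergic nociceptors to 0.13 for cold neurons. The median absolute difference over all genes was 0.085. The 14 measured Mrgprd-type genes had a median difference of 0.06, from 0.00 to 0.31, and all 14 were above 0, with Cd55 alone separated. The median was 0.06 for 5 Mrgpra3-type genes, 0.12 for 8 genes of somatostatin-type itch neurons and 0.11 for 5 genes of C-low-threshold mechanoreceptors. It was -0.05 for 10 peptidergic nociceptor genes and -0.01 for 14 large A-fibre genes, with no member separated in any of these 5 lists. A uniform sign was not particular to the Mrgprd-type genes. All 5 Mrgpra3-type genes, all 8 somatostatin-type genes and the 2 cold neuron genes were above 0 too, whereas 8 of the 10 peptidergic nociceptor genes were below. The summed level of the Mrgprd-type genes was 3575 to 4038 CPM in the low libraries and 3224 to 3819 CPM in the high libraries.

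Endoplasmic reticulum calcium genes, the process named in the title, did not divide the libraries. Of 24 measured members 12 were above 0 and 12 below, with a median of -0.00 and none separated. Orai1, the store-operated calcium channel gene, had the largest absolute difference at -0.38, with 4.66 to 7.16 CPM in the low libraries and 6.78 to 10.1 CPM in the high libraries. The median was -0.04 for 16 unfolded protein response genes and 0.06 for 18 itch receptor and signalling genes, and none of either list was separated. Il31ra, the interleukin-31 receptor gene, had 18.3 to 37.8 CPM in the low libraries and 19.1 to 29.6 CPM in the high libraries.

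The highest list medians were those of neutrophil, red cell, lymphocyte and interferon response genes, while that of 16 macrophage genes was 0.05, with 9 above 0 and 7 below. The 14 neutrophil genes had a median of 0.54 (0.87 without cKO 3) with none separated, and their summed level was 57.5 to 157 CPM in the low libraries and 50.6 to 121 CPM in the high libraries. The 8 red cell genes had a median of 0.37, which was 0.16 to 0.61 with 1 library left out, and their sum was 336 to 692 CPM in the low libraries and 289 to 527 CPM in the high libraries. The 5 lymphocyte genes had a median of 0.36, at a summed level of 2.49 to 4.66 CPM in the low libraries and 2.17 to 2.76 CPM in the high libraries. The 24 interferon response genes had a median of 0.19, with 21 above 0 and Ifih1 alone separated. Without cKO 4 that median was 0.05, and without flox 1 it was 0.34. Their sum was 582 to 927 CPM in the low libraries and 671 to 743 CPM in the high libraries, so the low libraries held both the highest and the lowest sum.

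Vessel and glial lists were mixed. All 11 endothelial genes were below 0, with a median of -0.11, and 11 of 13 myelinating Schwann cell genes were below 0, also with a median of -0.11. Without flox 4 these medians were -0.04 and 0.02. Other left-out libraries moved them further below 0, to -0.21 for endothelial genes without flox 1 and to -0.225 for myelinating Schwann cell genes without cKO 3. The median was -0.01 for 9 pericyte and smooth muscle genes, with 4 above 0 and 5 below, and 0.01 for 5 nonmyelinating Schwann cell genes, with 3 above and 2 below. The endothelial sum was 115 to 163 CPM in the low libraries and 130 to 164 CPM in the high libraries. The median was -0.08 for 8 satellite glia genes, and no member of these 5 lists was separated. Skeletal muscle genes, of which 4 of 13 were measured, summed to 2.03 to 47.4 CPM in the low libraries, the highest in flox 1, and 3.31 to 15.02 CPM in the high libraries. Whether the makeup of the ganglion sample bears on the separated genes was not tested.

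The separated genes differed from the rest in base composition. The median transcript GC content was 53.3% for the lower and 43.7% for the higher genes, beside 49.8% for all genes, with a value for at least 96% of each set. The quartile of genes lowest in GC held 141 of the 222 higher and 14 of the 199 lower genes. Median transcript length was 2596 bases for the lower genes, 4216 for the higher and 3393 for all.

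Levels moved with GC content in single libraries too. The median of the top GC quartile minus that of the bottom quartile, in log2 CPM relative to the mean of the 8 libraries, was -0.26, -0.14, 0.06 and 0.00 in the low libraries. It was -0.00, 0.10, 0.10 and 0.14 in the high libraries, and the groups overlapped. After each GC class was centred in each library, an alternative chosen after seeing the data, 335 genes were separated and 210 of them were among the 421 (49.9% of those). Of the named genes only Trim12a and Gng5 then overlapped, and Nr2c2ap and Rnf214 stayed separated with differences of 1.83 and -0.52.

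**Figure D5:**
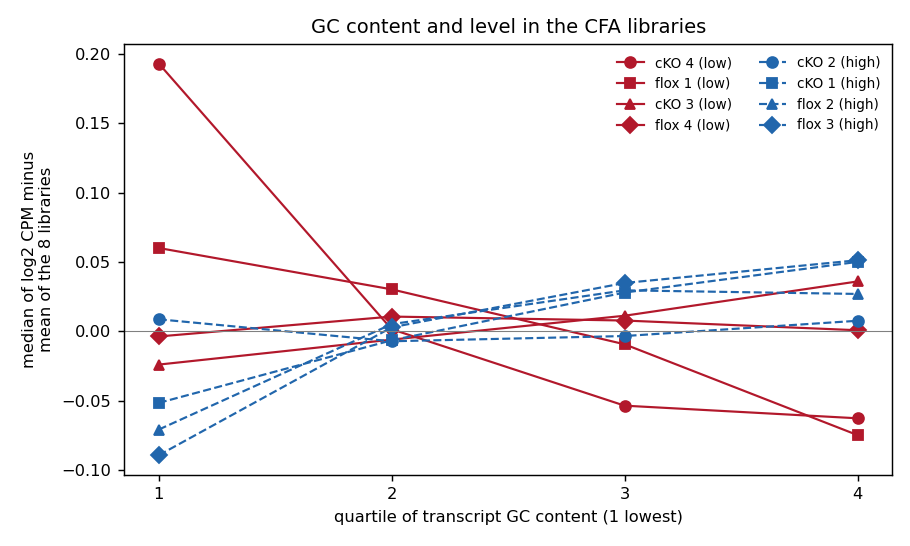
Median over the genes of each transcript GC quartile (x axis, 1 the lowest) of log2 CPM minus the mean of the 8 CFA libraries (y axis), with a solid red line for each Tmem45b-low library and a dashed blue line for each Tmem45b-high library. The low libraries cKO 4 and flox 1 run downward with GC, and the high libraries cKO 1, flox 2 and flox 3 run upward.

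The genotype labels were then tested in the libraries as labelled. Between CFA cKO and CFA flox libraries, edgeR's quasi-likelihood test called 0 of 16116 genes at an adjusted p under 0.05 (0%), with 799 at an unadjusted p under 0.05 (4.96%), whereas DESeq2 called 18. Tmem45b differed by -0.21 (SE 0.26, edgeR adjusted p = 0.963) and Mrgprd by -0.25 (SE 0.13, edgeR adjusted p = 0.938). The separated genes are not read in this comparison, because each label held 2 low and 2 high libraries, so choosing them by level widens the spread within each label.

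In untreated ganglia, whose libraries the grouping did not use, edgeR called 1 of 16147 genes (0.00619%), Tmem45b itself. It was lower in cKO by 1.02 on the log2 scale (log2 difference -1.02, SE 0.07, edgeR adjusted p = 4.41e-05). Mrgprd differed there by -0.05 (SE 0.14, edgeR adjusted p = 0.975). In the con/ko set 3 of 4 cKO and 1 of 3 flox libraries bear the letter C, and with this letter as a further term, chosen after seeing the data, Mrgprd differed by 0.08 (SE 0.09, edgeR adjusted p = 0.971) and Tmem45b by -0.99 (SE 0.07, edgeR adjusted p = 0.000122). Of the 421 separated genes, 419 could be tested in the untreated libraries, and edgeR called 0 of them, with a lowest adjusted p of 0.574. An unadjusted edgeR p under 0.05 was reached by 22 (5.25%). That share was 6.86% of all 16147 genes and 6.98% of the 15135 genes also kept in the description of low and high libraries. The untreated cKO minus flox difference had the sign of the low minus high difference for 132 of the separated genes (31.5%), beside 41.0% of those 15135 genes. With the letter term it did so for 166 (39.6%), beside 46.6%.

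DESeq2 called 1 of the separated genes in the untreated ganglia, Gpank1. It was higher in cKO by 0.30 (SE 0.07, DESeq2 adjusted p = 0.0217, edgeR adjusted p = 0.574), but lower in the low CFA libraries by a difference of -0.27. None of the 24 genes named by their gap was called by edgeR in the untreated ganglia. Klk5 came nearest, with 0.862 to 1.57 CPM in cKO and 1.56 to 1.99 CPM in flox libraries, a difference of -0.61 (SE 0.16, edgeR adjusted p = 0.656).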

How the data were processed

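The authors deposited whole-number read counts per gene for each library. Per the submitters' processing notes, the tools included fastp 0.23.2, BWA 2.2.1, SAMtools 1.14 and DESeq2 1.40.2 with the build mm10; the counting tool and its use of strand are not given in the sources used here. Libraries were grouped at a Tmem45b level of 90 (the scale defined with the groups). Genes were kept by edgeR's filterByExpr (minimum count 10, minimum total 15), scaled by TMM and expressed as log2 CPM with a prior count of 2 (R 4.3.3, edgeR 4.0.16, limma 3.58.1). Low and high libraries were only described, since they were grouped by a measured level. Labelled cKO and flox libraries were tested with edgeR's quasi-likelihood test and Benjamini-Hochberg adjustment, with the library name set as a covariate in the untreated ganglia, and with DESeq2 1.42.0 as an alternative. The method was tested on simulated data. Named genes were Tmem45b, Mrgprd and the 12 lower and 12 higher separated genes with the largest gap, averaging 1 CPM or more in either group and no Gm, Rik, LOC, BC, AC or AL name. A wider exclusion of clone-like names was tried and given up because it departed from that rule: it put Nod2 in place of AA387883 and changed no other named gene. Further genes were named from the lists and as overlapping partners, and Kcnb2 and Gpank1 after their values were seen. Gene positions, overlaps, length and GC content came from GENCODE vM21. The members, lists and rules were chosen with earlier results of these data known. The number of libraries limits the precision, and counting error adds to it for genes near 1 CPM. Alternatives were other scaling, filters and prior counts, each library left out, each label alone, and, chosen after seeing the data, GC centring, a term for the letter C or L in the con/ko names and leaving out both Kcnb2-high libraries.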

Additional observations from a re-analysis of the deposited data

Results flagged for a closer look

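In 52 groups of 4 libraries among the named genes, the distance of an extreme library to its nearest neighbour was divided by the group's range. In 7 groups this passed the critical value of Dixon's test. Chance alone passes it in about 5% of groups not chosen by their values. Most of these genes were named by their gap in the same libraries, so the 7 groups cannot be set against that rate. In Tmem45b-low libraries these were Gfra3 at 30.9 CPM in cKO 3, Xlr3a at 4.64 CPM in flox 4 and Ifih1 at 29.3 CPM in cKO 4. In Tmem45b-high libraries they were Tmem88 at 5.33 CPM and Xlr3a at 0.564 CPM in cKO 2, AA387883 at 1.64 CPM in cKO 1 and Rbbp8 at 9.88 CPM in flox 3. The reason for each distant library was not tested.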

How the results depend on the processing

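The 421 separated genes became 631 to 1490 when 1 library was left out (337 to 720 lower, 294 to 807 higher), where fewer libraries have to separate. For the same reason there were 4098 (2115 lower, 1983 higher) among the libraries labelled cKO alone, 5641 (2695 lower, 2946 higher) among those labelled flox alone, and 1497 (760 lower, 737 higher) without both Kcnb2-high libraries. Scaling, filter and prior count gave 333 to 482. The direction of the named genes is fixed by their choice and is not counted here. Of 525 list medians, 517 moved by less than 1 SD, the larger SD of the list's mean log2 CPM within the low or high libraries. That SD can exceed the median, so this does not show stable medians. The adipocyte median went from 0.16 to -0.69 without cKO 3. The C-low-threshold mechanoreceptor median went from 0.11 to 0.01 without flox 2. The CFA cKO against flox count of 0 became 18 with DESeq2 and 0 to 2 with 1 library left out. The untreated count of 1 became 38 with DESeq2, 3 in the LDRG set alone, 40 in the con/ko set alone and 1 to 42 with 1 library left out, 42 without cKO 1; the cause was not tested. DESeq2 called 1 separated gene there, against 0. Untreated Mrgprd, -0.05, reversed to 0.187 in the LDRG set alone, to 0.075 with the letter code as a term, and spanned -0.102 to 0.0369 with 1 library left out, reversed without flox 6 (0.0347) and without cKO 5, never past the threshold. With the replicate number as a block the counts were 0 for CFA and 1 for untreated libraries; same-numbered libraries correlated at -0.01 to 0.06 in the CFA, -0.00 to 0.11 in the LDRG and -0.16 to 0.26 in the con/ko set, and not every pair passed 0.1, so the numbers were not taken to pair the samples.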
